A study of Homo sapiens with 6 samples.

Results

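The genes described here are 10 negative-feedback regulators of MAP kinase signalling. They are the dual-specificity phosphatases DUSP4, DUSP5, DUSP6, DUSP8 and DUSP10, the Sprouty genes SPRY1, SPRY2 and SPRY4, and the Sprouty-related genes SPRED1 and SPRED2. They were matched by symbol in the deposited count tables, and all 10 were found among the 38557 genes listed there. The set was chosen partly on the measured difference of DUSP8 between the media and otherwise by gene family, so the medium difference of DUSP8 is given below as a description with no test. The RNA came from heart muscle cells (cardiomyocytes) grown out of WTC11, an established line of human pluripotent stem cells made by reprogramming (iPSC), and all 6 libraries are labelled WT. The cells had been kept in RPMI plus B27, where B27 is a serum-free supplement, or in DMEM plus fatty acids, with 3 biological replicates each, numbered 1 to 3 in both media. What the media contain beyond their names and how long the cells stayed in them are not in the labels, and all cultures come from a single line. The comparison asks which transcripts differ with the backbone medium, and a negative log2 fold change below stands for a lower level in DMEM plus fatty acids.

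MAP kinases (ERK, JNK and p38) are switched on by phosphorylation of a threonine and a tyrosine, and the MAP kinase phosphatases switch them off by removing both phosphates. DUSP1, DUSP2, DUSP4 and DUSP5 act in the nucleus and are induced by growth factors and stress, DUSP6, DUSP7 and DUSP9 act on ERK in the cytoplasm, and DUSP8, DUSP10 and DUSP16 act mainly on JNK and p38. Sprouty and SPRED proteins act further upstream, between receptor tyrosine kinases and RAF, and several of these genes are transcribed in response to ERK itself, which closes a feedback loop. In the heart, MAP kinase signalling takes part in the growth of cardiomyocytes and in their response to load.

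The 6 libraries held 23232324 to 31035389 counts assigned to genes. CPM below are counts divided by the library's total and scaled by TMM, a correction for differences in RNA composition between libraries, and a count of 0 allowed up to 0.0889 to 0.129 CPM depending on the library (3 counts, counting error only). All 12 cardiomyocyte markers were present, and their summed level was 39369 to 48319 CPM in RPMI plus B27 and 26079 to 41555 CPM in DMEM plus fatty acids. Of the 12, 9 were lower and 3 higher in DMEM plus fatty acids, with 0 past the threshold. Fibroblast and stromal markers moved with the medium. Their summed level was 8491, 5413 and 4353 CPM in RPMI plus B27 replicates 1 to 3 and 761, 1962 and 1812 CPM in DMEM plus fatty acids, with 12 of 13 tested markers lower and 6 of them past the threshold. The stromal markers DCN and FAP had libraries at 0, in both cases in DMEM plus fatty acids. Smooth muscle markers summed to 1572 to 1979 CPM in RPMI plus B27 and 316 to 1147 CPM in DMEM plus fatty acids, with 6 of 6 lower and 1 past the threshold. Epicardial markers summed to 1356 to 1643 and 625.6 to 704 CPM, with 4 of 4 tested markers lower and 1 past the threshold. The keratins KRT8 (1065 to 1480 and 538 to 662 CPM) and KRT19 (100 to 281 and 41.6 to 84.7 CPM) made up most of these sums. KRT8 was the marker past the threshold. WT1, ALDH1A2 and UPK3B were at 0.0669 to 0.942 CPM in every library, and WT1 and UPK3B were not tested. Of 6 endothelial markers, PECAM1, CDH5 and VWF were at 0 to 0.414 CPM in every library. KDR had 27.5 to 238.9 CPM in RPMI plus B27 and 114.5 to 463.2 CPM in DMEM plus fatty acids, EMCN 1.23 to 7.80 and 0.0296 to 0.301 CPM, and TEK 0.485 to 1.13 and 0.100 to 0.258 CPM. With the replicate number as a block in the fit, the calls rose to 9 stromal, 3 smooth muscle and 3 epicardial markers, all lower, and added 2 cardiomyocyte markers (ACTN2 and MYH7, both lower), KDR (higher) and EMCN (lower). Over all genes tested, 1.36% were past the threshold (4.78% with the block) and 49.0% were lower. The part of these cell type markers in the medium differences below was not tested. In bulk RNA, fewer cells of a type cannot be told apart from less RNA per cell.

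Sequence before the RefSeq start is shown for DUSP8 and for its relative DUSP1, chosen after their values were seen because these had the largest differences among the tested genes of the family. RefSeq promoters (GRCh38.p14) were used for 8 of the 10 genes, and the 250 bases before the start were searched on both strands for 5 motifs. These were the cAMP response element TGACGTCA (CRE), the AP-1 motif TGANTCA, the ETS motif CCGGAAG, the E-box CACGTG and the CArG box bound by serum response factor. The capitals mark the matches, which did not overlap each other. DUSP8 lies on chromosome 11 (GRCh38, 1554051 to 1572848, minus strand), DUSP1 on chromosome 5 (172768096 to 172771195, minus strand), and the sequences run 5′ to 3′ on the strand of the gene at chr11:1572272-1572521 and chr5:172771196-172771445. The coordinates of the genes are RefSeq positions. The span given for DUSP8 reaches farther upstream than the start used for its window, so the DUSP8 window lies within that gene span. Neither window overlapped an exon of its gene in GENCODE v29.
DUSP8: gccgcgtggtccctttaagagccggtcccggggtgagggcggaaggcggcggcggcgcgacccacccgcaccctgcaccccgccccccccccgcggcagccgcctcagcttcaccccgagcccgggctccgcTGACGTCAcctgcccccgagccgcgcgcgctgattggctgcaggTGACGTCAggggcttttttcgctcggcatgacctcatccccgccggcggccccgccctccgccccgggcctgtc
DUSP1: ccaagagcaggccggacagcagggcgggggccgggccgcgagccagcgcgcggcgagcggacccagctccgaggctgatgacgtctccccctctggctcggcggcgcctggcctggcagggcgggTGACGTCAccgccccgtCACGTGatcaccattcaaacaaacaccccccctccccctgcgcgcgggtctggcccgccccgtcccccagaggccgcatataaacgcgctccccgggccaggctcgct

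The DUSP8 window held 2 CREs, which begin 118 and 74 bases before the start. The DUSP1 window held 1 CRE, beginning 125 bases before the start, and 1 E-box, beginning 108 bases before it. Of 35116 RefSeq windows of the same length, 1.65% held at least 1 CRE and 19 windows held 2 or more, and 6.34% held an E-box. G and C made up 76.8% of the DUSP8 window and 74.4% of the DUSP1 window, against a median of 58.0% over all windows. The shares were not computed for windows of like composition. Among the other genes of the set with a matched window, SPRY1 had an ETS match at 1 of its 2 starts (8.52% of all windows) and no CRE was found in DUSP6, DUSP10, SPRY1, SPRY2, SPRY4, SPRED1 or SPRED2. Outside the set, DUSP2 had an E-box match, and SPRED3 had an AP-1 match at 1 of its 2 starts (6.57% of all windows). A match describes letters in the window and not a bound site.

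DUSP8, a phosphatase acting mainly on JNK and p38, had the largest difference of the 10 genes. Its level was 56.1, 24.9 and 30.4 CPM in RPMI plus B27 replicates 1 to 3 and 19.6, 5.89 and 2.16 CPM in DMEM plus fatty acids replicates 1 to 3. The media did not overlap, although the lowest RPMI plus B27 library lay close to the highest DMEM plus fatty acids library. The means were 37.1 ± 16.6 and 9.21 ± 9.18 CPM (SD, n = 3 each), a ratio of 4.03, and the fitted log2 fold change was -2.02 ± 0.73 (SE). Within replicate numbers the log2 ratio was -1.51, -2.07 and -3.77, so it was negative in 3 of 3 pairs and differed widely in size. With the replicate number as a block the fitted value was -2.39 ± 0.43. The spread among the DMEM plus fatty acids libraries was large, and without replicate 1 of that medium the fitted value was -3.21 ± 0.56. Without RPMI plus B27 replicate 1 it was -1.60 ± 0.79. In RPMI plus B27 the stromal marker sum fell from replicate 1 to replicate 3, and DUSP8 was highest in replicate 1 and lowest in replicate 2. In DMEM plus fatty acids DUSP8 was highest in replicate 1, where the stromal sum was lowest. A relation between DUSP8 and the stromal sum was not tested. An antisense gene, KRTAP5-AS1, overlaps the DUSP8 locus but none of its exons, and it had 1 to 23 counts per library against 73 to 1488 for DUSP8.

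**Figure D1:**
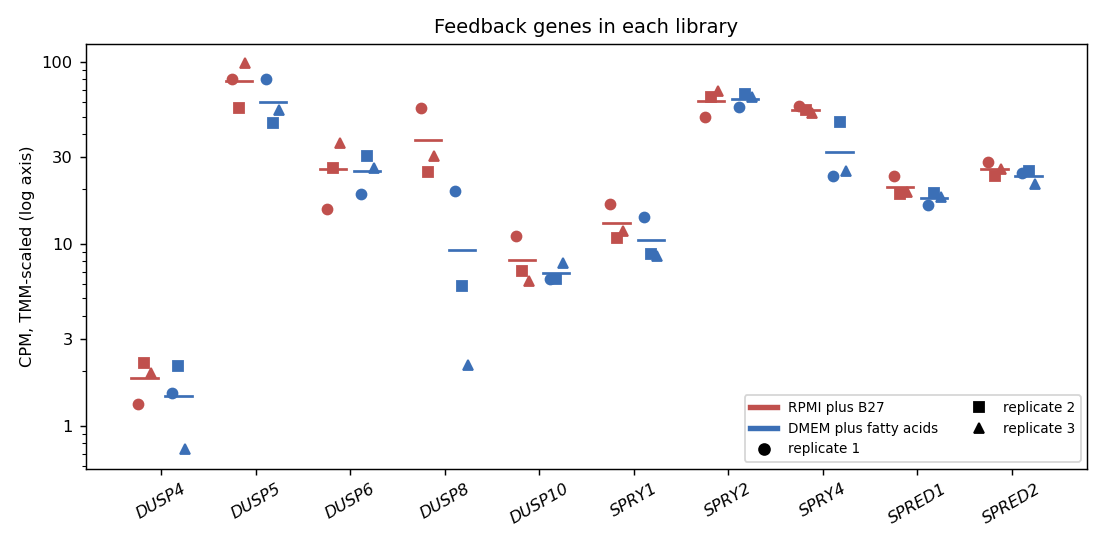
TMM-scaled CPM (log axis) of the 10 genes in each library, with RPMI plus B27 in red, DMEM plus fatty acids in blue, 1 symbol per replicate number and a bar at the mean of 3. DUSP8 (56.1 to 24.9 against 19.6 to 2.16 CPM) and SPRY4 (57.1 to 52.6 against 46.9 to 23.4 CPM) are the genes whose media do not overlap.

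The genes whose pattern over the 6 libraries lay nearest to that of DUSP8 were sought among 14084 others with a mean of at least 1 CPM. Likeness was the root mean square difference of log2 CPM after centring each gene on its own mean, and the median over all candidates was 1.59. The nearest was CREB5, a transcription factor of the CREB/ATF family, at 0.21. CREB5 had 46.8, 18.9 and 30.5 CPM in RPMI plus B27 and 12.5, 4.65 and 2.02 CPM in DMEM plus fatty acids, in the same order of libraries as DUSP8. The following genes were farther away, namely SLC16A3 (a monocarboxylate transporter that exports lactate, 0.49), MIR210HG (the host transcript of a microRNA, 0.52), ZFP57 (a zinc finger protein of genomic imprinting, 0.55) and LOC105377378 (0.55). SLC16A3 had 204.9, 90.7 and 70.5 CPM in RPMI plus B27 and 42.8, 25.1 and 13.0 CPM in DMEM plus fatty acids. These values describe likeness over 6 libraries that share the medium and replicate structure, and carry no test.

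**Figure D2:**
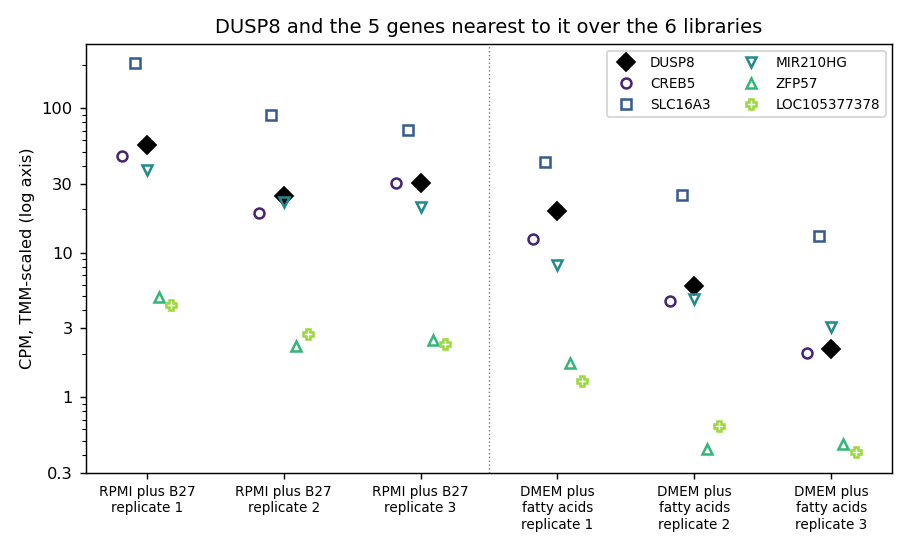
TMM-scaled CPM (log axis) of DUSP8 (black diamonds) and of the 5 genes nearest to it, for each of the 6 libraries. CREB5 lies nearest to DUSP8 and runs from 46.8 CPM in RPMI plus B27 replicate 1 to 2.02 CPM in DMEM plus fatty acids replicate 3.

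Of the 9 genes other than DUSP8, 0 passed the threshold of an adjusted p under 0.05 (edgeR quasi-likelihood test, Benjamini-Hochberg over all genes tested), where 1.36% of the 16107 genes tested did (47 higher and 172 lower, or 74 and 128 under scaling by total counts). All 10 genes passed the filter on low counts. At an unadjusted p under 0.05 there was 1 of the 9 (SPRY4), against 17.7% of all genes. The DESeq2 Wald test called 0 of the 9, and 1212 of the 16107 genes. In the fit blocked by replicate number 0 of the 9 passed, where 4.78% of all genes did. The media did not overlap for 1 of the 9 (SPRY4), where that held for 25.6% of all tested genes. The median log2 fold change of the 9 was -0.24, against 0.01 over all genes, and 8 of 9 were below 0, against 49.0% of all genes, or 7 of 9 under total-count scaling, which turned DUSP6 to 0.07 and moved the median of all genes to 0.12.

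DUSP10 and DUSP16, grouped above with DUSP8, had smaller fitted differences than DUSP8, and the difference between these genes was not tested. DUSP1, grouped with the nuclear phosphatases and described below, had a larger one than DUSP10 and DUSP16 (-1.66 ± 0.37, SE). DUSP10, which acts on JNK and p38, had 11.0, 7.10 and 6.26 CPM in RPMI plus B27 and 6.37, 6.39 and 7.86 CPM in DMEM plus fatty acids. The media overlapped, RPMI plus B27 replicate 1 stood above the other 5 libraries, and the log2 fold change of -0.24 ± 0.26 (SE, edgeR adjusted p 0.678) was 0.04 without that library. DUSP16, which is no member of the set, had 62.5 to 85.1 CPM and 51.1 to 64.6 CPM in the respective media, with overlap (-0.38 ± 0.16, adjusted p 0.275).

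Among the inducible nuclear phosphatases, DUSP5, which acts on ERK, had the highest level per kilobase of exon. Reads that fit both DUSP5 and its pseudogene DUSP5P1 may be left out as multiply aligned or counted for either gene. This was not measured, so the counts of DUSP5 are uncertain to that extent. It had 80.5, 55.5 and 98.2 CPM in RPMI plus B27 and 80.6, 45.9 and 54.4 CPM in DMEM plus fatty acids. Replicate 2 was the lowest library in each medium, the media overlapped, and the log2 fold change was -0.37 ± 0.27 (SE, edgeR adjusted p 0.513). DUSP4, which acts on several MAP kinases, was scarce, with 25 to 64 counts per library. It had 1.32, 2.21 and 1.94 CPM in RPMI plus B27 and 1.51, 2.14 and 0.741 CPM in DMEM plus fatty acids (-0.32 ± 0.43, adjusted p 0.745). Only DMEM plus fatty acids replicate 3 lay below the RPMI plus B27 range, and without it the value was 0.0096.

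DUSP1, the immediate-early phosphatase that is rapidly induced by stress and growth factors, was not in the set. It had 38.7, 19.2 and 17.7 CPM in RPMI plus B27 and 7.88, 10.5 and 5.51 CPM in DMEM plus fatty acids. All 3 DMEM plus fatty acids libraries lay below all 3 RPMI plus B27 libraries. Its log2 fold change was -1.66 ± 0.37 (SE, edgeR adjusted p 0.0832, and 0.0357 with the replicate block). Over 11 alternatives the adjusted p ran from 0.000631 (DESeq2) to 0.193. DUSP2, another immediate-early phosphatase, had 1.04 to 2.30 CPM and 0.775 to 2.04 CPM in the respective media, with overlap (-0.60 ± 0.50, adjusted p 0.574).

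Of the cytoplasmic ERK phosphatases, DUSP6, a standard readout of ERK activity, had 15.6, 26.0 and 35.8 CPM in RPMI plus B27 and 18.8, 30.4 and 26.1 CPM in DMEM plus fatty acids. Replicate 1 was the lowest library in both media, and the spread within a medium exceeded the difference between them, whose sign turned under total-count scaling (log2 fold change -0.04 ± 0.31, SE, edgeR adjusted p 0.959). Exons of an antisense gene overlap those of DUSP6, and the strand setting of the counting is not given, so its counts may hold antisense reads. DUSP7 had 34.7, 23.5 and 28.9 CPM against 16.6, 20.8 and 19.8 CPM, without overlap, but did not pass (-0.61 ± 0.18, adjusted p 0.157). DUSP9 was below the filter, at 0.298 to 0.829 CPM in RPMI plus B27 and 0 to 0.237 CPM in DMEM plus fatty acids, and was not tested.

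The Sprouty genes encode inhibitors that act between receptor tyrosine kinases and RAF. SPRY4 had 57.1, 54.2 and 52.6 CPM in RPMI plus B27, a narrow range, and 23.4, 46.9 and 25.1 CPM in DMEM plus fatty acids. The media did not overlap, but DMEM plus fatty acids replicate 2 lay near the RPMI plus B27 range. The log2 fold change was -0.78 ± 0.26 (SE, edgeR adjusted p 0.191, with a range of 0.0698 to 0.381 across 11 alternatives), and it was -1.17 without DMEM plus fatty acids replicate 2. SPRY4 lies on chromosome 5 (GRCh38, 142310430 to 142325021, minus strand), and an antisense gene that overlaps none of its exons, SPRY4-AS1, had 0 to 12 counts per library against 544 to 1515 for SPRY4.

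SPRY2, the Sprouty gene with the highest level per kilobase of exon, had 49.9, 64.4 and 68.9 CPM in RPMI plus B27 and 56.6, 66.9 and 64.0 CPM in DMEM plus fatty acids. All 3 DMEM plus fatty acids values fell inside the RPMI plus B27 range (0.03 ± 0.15, SE, edgeR adjusted p 0.928). SPRY1 had 16.6, 10.8 and 11.8 CPM in RPMI plus B27 and 14.1, 8.79 and 8.54 CPM in DMEM plus fatty acids, with replicate 1 the highest in both media (-0.32 ± 0.27, adjusted p 0.580). SPRY3, outside the set, had 4.86 to 8.98 and 5.21 to 8.73 CPM (-0.01 ± 0.32, adjusted p 0.990), and its sign changed when libraries were scaled by total counts.

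The SPRED proteins bring the RAS inhibitor neurofibromin to the membrane. SPRED1 had 23.6, 18.8 and 19.3 CPM in RPMI plus B27 and 16.2, 19.1 and 18.2 CPM in DMEM plus fatty acids (log2 fold change -0.20 ± 0.16, SE, edgeR adjusted p 0.538). SPRED2 had 28.1, 23.6 and 25.8 CPM and 24.3, 25.0 and 21.4 CPM in the respective media (-0.13 ± 0.14, adjusted p 0.661). Both genes overlapped between media and varied little between libraries. SPRED3, which is not in the set, had 8.63, 6.51 and 6.12 CPM in RPMI plus B27 and 3.66, 4.31 and 3.53 CPM in DMEM plus fatty acids. Its media did not overlap, and its log2 fold change of -0.89 ± 0.23 did not pass (adjusted p 0.119), except by the DESeq2 Wald test (adjusted p 0.0107).

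**Figure D3:**
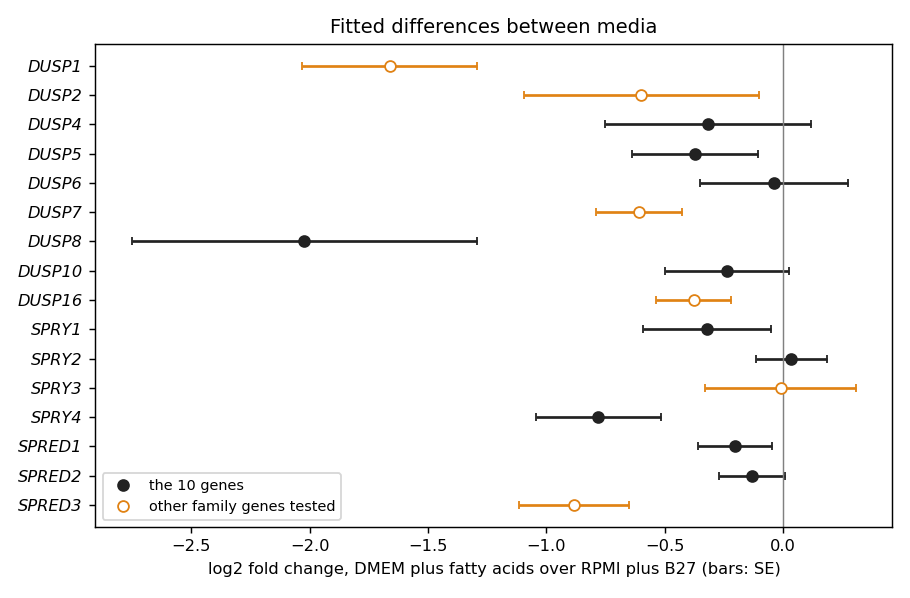
Fitted log2 fold changes (points) with standard errors (bars) for the 10 genes (black) and for the 6 other MAP kinase phosphatase, Sprouty and SPRED genes that were tested (orange). DUSP8 (-2.02), DUSP1 (-1.66), SPRED3 (-0.89) and SPRY4 (-0.78) lie farthest below 0, and SPRY2 (0.03) is the gene above 0, joined by DUSP6 (0.07) and SPRY3 (0.10) under total-count scaling.

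Beside DUSP8 and SPRY4 (GRCh38), DUSP5 lies on chromosome 10 (110497907 to 110511533), DUSP6 on 12 (89347235 to 89352501), DUSP10 on 1 (221701424 to 221742089), SPRY1 on 4 (123396795 to 123403760), SPRY2 on 13 (80335976 to 80341126), SPRED1 on 15 (38252836 to 38357249) and SPRED2 on 2 (65307175 to 65432599).

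Levels of different genes were compared as CPM per kilobase of annotated exon (GENCODE v29, all exons of a gene merged), which depends on the annotation used. In RPMI plus B27 the order was DUSP5 (29.9 ± 8.20, SD, n = 3), SPRY2 (20.1 ± 3.27), SPRY4 (8.32 ± 0.345), DUSP8 (8.04 ± 3.61), DUSP6 (5.57 ± 2.18), SPRED2 (5.02 ± 0.444), SPRY1 (3.29 ± 0.789), DUSP10 (2.78 ± 0.860), SPRED1 (2.49 ± 0.321) and DUSP4 (0.251 ± 0.0631). Neighbours in this order overlapped between libraries, except SPRY2 with SPRY4, SPRED2 with SPRY1 and SPRED1 with DUSP4. In DMEM plus fatty acids DUSP5 (23.1 ± 6.92) and SPRY2 (20.6 ± 1.75) again stood first and DUSP4 (0.202 ± 0.0965) last. DUSP8 (2.00 ± 1.99) was in position 9 there instead of position 4. Its range of 0.469 to 4.24 overlapped SPRED1, DUSP10, SPRY1, SPRED2 (4.16 to 4.85), SPRY4 (3.57 to 7.14) and DUSP6 (4.05 to 6.56). DUSP1 (12.5 ± 5.79) and DUSP16 (12.6 ± 2.02) in RPMI plus B27 lay between SPRY2 and SPRY4 on this scale.

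The rest of the pathway was described from lists of ligands, receptors, kinases and targets. Of 20 tested ligands of receptor tyrosine kinases, 12 were lower and 8 higher in DMEM plus fatty acids, with a median log2 fold change of -0.40. Of the 20, 2 passed, both lower (3 with the replicate block, all lower). Over all genes 49.0% were lower, and 1.36% passed (4.78% with the block). HBEGF, an EGF-family ligand, had 67.6, 44.0 and 53.8 CPM in RPMI plus B27 and 14.1, 13.3 and 7.05 CPM in DMEM plus fatty acids, and fell by 2.26 ± 0.29 (SE, edgeR adjusted p 0.0292). IGF1, the insulin-like growth factor, had 15, 49 and 25 counts in RPMI plus B27 and 0, 1 and 1 in DMEM plus fatty acids (adjusted p 0.0402). PDGFB, a platelet-derived growth factor chain, had the next smallest p (-1.56 ± 0.32, adjusted p 0.0705, and 0.0219 with the replicate block).

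Of 15 receptor tyrosine kinases, 12 were lower, with a median of -0.73, against 49.0% of all genes lower. Of the 15, 1 passed (6 with the replicate block, 5 of them lower), where 1.36% of all genes did (4.78% with the block). The gene that passed without the block was FGFR1, the FGF receptor for which Sprouty is a classic antagonist. FGFR1 had 115.9, 105.8 and 108.7 CPM in RPMI plus B27 and 61.2, 66.2 and 59.7 CPM in DMEM plus fatty acids, and fell by 0.82 ± 0.10 (SE, edgeR adjusted p 0.0292). The libraries of each medium lay close together for this gene. PDGFRB (-3.63 ± 0.70, adjusted p 0.0605, and 0.0269 with the replicate block) and PDGFRA (-1.26 ± 0.33, adjusted p 0.117, and 0.0281 with the block) came next, and both are also in the list of stromal markers. PDGFRB had 74.9, 18.9 and 11.6 CPM in RPMI plus B27, and 3.01, 2.84 and 2.67 CPM in DMEM plus fatty acids. Its order follows the stromal sum, of which it is a part, in RPMI plus B27 but not in DMEM plus fatty acids.

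The kinases themselves showed no calls, where 1.36% of all genes passed (4.78% with the replicate block) and 17.7% had an unadjusted p under 0.05. By the DESeq2 Wald test 1212 of the 16107 genes passed. Of 21 genes of the RAS-ERK cascade and its adaptors, 0 passed with or without the replicate block (2 at an unadjusted p under 0.05, 0 by the DESeq2 Wald test), and their log2 fold changes ran from -0.43 to 0.21 with a median of -0.06 (0.05 under total-count scaling). MAP2K1, the kinase MEK1 that activates ERK, had 98.6, 74.4 and 67.8 CPM and 61.0, 65.3 and 52.1 CPM in the respective media (-0.43 ± 0.17, edgeR adjusted p 0.247). The adaptors SHC1 (-0.36 ± 0.15) and GRB2 (-0.25 ± 0.11) had adjusted p values of 0.263 and 0.288. Of 15 JNK and p38 kinases and their activators, 0 passed in either fit (1 at an unadjusted p under 0.05, 0 by DESeq2), with a median of 0.01 (0.12 under total-count scaling) and a range of -0.39 to 0.80. MAP3K20, a stress-activated kinase with 442.6 to 501.7 CPM in RPMI plus B27 and 344.7 to 396.9 CPM in DMEM plus fatty acids, had -0.38 ± 0.12 (adjusted p 0.180). The p38 kinase MAPK12 (0.29 ± 0.14, adjusted p 0.351) and the p38 activator MAP2K6 (0.80 ± 0.43, adjusted p 0.381) had the next smallest p values.

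Of 20 other genes that ERK signalling is known to induce, 18 were lower in DMEM plus fatty acids, with a median of -0.73, against 49.0% of all genes lower. In the fit without the block 1 passed, EMP1, where 1.36% of all genes did. An unadjusted p under 0.05 was found for 11 (10 lower), against 17.7% of all genes. With the replicate block 7 passed, 6 lower and 1 higher, against 4.78% of all genes. EMP1, an epithelial membrane protein, had 48, 23 and 11 counts in RPMI plus B27 and 0, 1 and 1 in DMEM plus fatty acids (edgeR adjusted p 0.0423). IL11, a cytokine, was also scarce, with 0.634 to 1.92 CPM and 0.0669 to 0.215 CPM in the respective media (adjusted p 0.0540, and 0.0220 with the block). The ETS factors ETV4 and ETV5, named here after their values were seen because they are commonly read together with DUSP6 and SPRY4, had -0.96 ± 0.50 and -0.35 ± 0.26 (adjusted p 0.363 and 0.525). ETV4 was lowest in DMEM plus fatty acids replicate 1 (0.947 CPM), as was SPRY4. ETV1, another ETS factor of this list, had -0.20 ± 0.29 (edgeR adjusted p 0.772). Within DMEM plus fatty acids ETV1 was highest in replicate 1 (100.7 CPM).

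Most calls in these lists were lost when any library other than RPMI plus B27 replicate 3 was left out, which also leaves fewer samples. FGFR1, HBEGF and EMP1 each kept an adjusted p under 0.05 in 1 of the 6 fits that left out a library (without RPMI plus B27 replicate 3), and IGF1 in 0 of 6. Their adjusted p values in those fits reached 0.104, 0.0947, 0.138 and 0.122 respectively, and all 4 stayed lower in DMEM plus fatty acids in all 6. The log2 fold change stayed between -0.86 and -0.78 for FGFR1 and between -2.44 and -2.001 for HBEGF. PDGFRB passed in 2 of those fits (without RPMI plus B27 replicate 1 or 3) and PDGFRA in 1 (without RPMI plus B27 replicate 3).

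**Figure D4:**
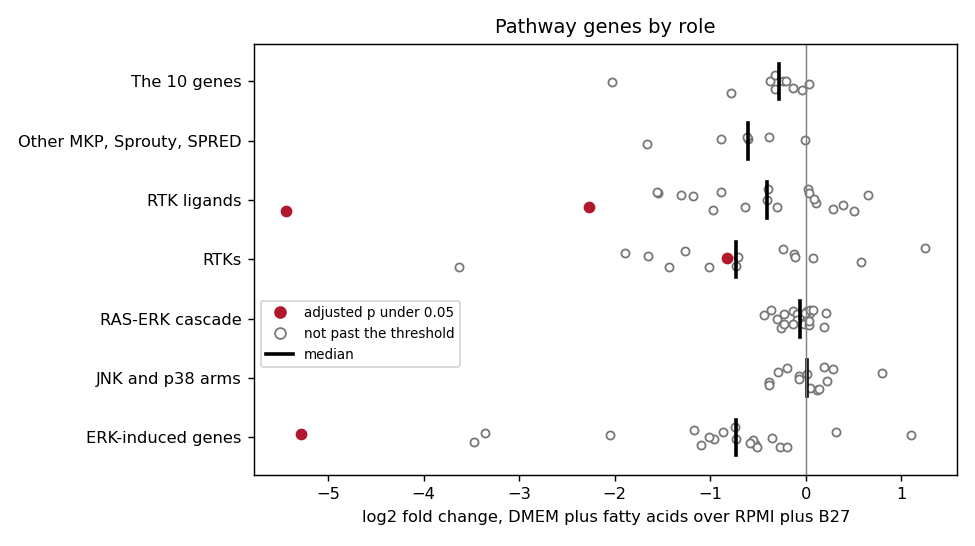
Log2 fold changes of the tested genes of each list, with medians as bars and genes past the threshold filled in red. The kinase lists lie around 0 (medians -0.06 and 0.01), and the filled points are IGF1 and HBEGF among ligands, FGFR1 among receptors and EMP1 among ERK-induced genes.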

How the data were processed

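Messenger RNA of 6 libraries (3 per medium, grouped and numbered by their titles) was sequenced from a stranded kit. The authors deposited a table for each library that lists unnormalized read counts by gene symbol. STAR, HTSeq and hg38 are named in the submitters' processing notes. The annotation and the strand setting are not given in the sources used here, so genes that overlap others are uncertain. The 5 summary rows of each file were left out. Reads outside genes were 5.44% to 7.57% of all counted rows, ambiguous reads 3.90% to 4.15% and multiply aligned reads 3.05% to 4.10%.

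The counts went into edgeR 4.0.16 under R 4.3.3 (filterByExpr with minimum count 10 and minimum total 15, TMM, quasi-likelihood, medium as the only term), with Benjamini-Hochberg adjustment over 16107 genes and a threshold of 0.05. Standard errors follow from the F statistic, and log2 CPM used a prior count of 2. The genes and lists were chosen with earlier results of these data known. Named are all 10 genes, the other family genes, and from each pathway list every called gene and the 3 with the smallest p, except 1 gene that is not reported here. The labels call the replicates biological without saying what separates them, so p values measure the spread between these libraries.

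Same-numbered libraries deviated together from the mean of their medium (Pearson's r across genes 0.31, 0.43 and 0.37, against -0.24 to -0.14 for other pairs), so the numbers pair the libraries. Calls and errors come from the fit without the block, which leaves this pairing out, unless the block is named. Blocked values stand beside the calls they change, except for DUSP8, for which no call is given. No library was a copy of another, the closest pair having a chi-square of 32.2 for each degree of freedom. Alternatives were DESeq2 1.42.0, total-count scaling, no filter, a filter of 10 counts in every library, the replicate block, and each library left out.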

Additional observations from a re-analysis of the deposited data

How the results depend on the processing

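The count of genes called between media was 219 and was 1212 by the DESeq2 Wald test, 539 without a filter, 119 with 10 counts in every library, 770 with the replicate block, and 3 (without DMEM plus fatty acids replicate 3) to 131 (without RPMI plus B27 replicate 3) when 1 library was left out, with 4 to 30 for the other 4 libraries. Of the 9 genes other than DUSP8, 0 were called in the main fit or under any alternative. DUSP8 was chosen on this contrast, so no call is given for it. The count over the pathway lists was 4 and was 21, 15, 2 and 17 under those same 4 alternatives and 0 to 5 when 1 library was left out; the cause was not tested. The replicate block left 2 residual degrees of freedom (4 without it). Among the named genes other than DUSP8 it changed no call beyond those given beside their values. PDGFB, PDGFRA, PDGFRB, IL11 and DUSP1 were also called by DESeq2 and without a filter, and EMP1, IGF1 and IL11 could not be fitted with 10 counts in every library because they were left out by it. DUSP8 ran from -3.21 to -1.55 on the log2 scale over its 11 alternatives.

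Among the genes followed singly through the alternatives, which leave out ETV1, ETV4 and ETV5, signs turned for 5, and none of the 5 was called. DUSP6 was 0.071 with total-count scaling, 0.0081 with the replicate block, and -0.30 to 0.27 when 1 library was left out. SPRY3 was 0.10 with total-count scaling, 0.00052 without a filter, and -0.25 to 0.19 when 1 library was left out. Leaving out 1 library gave -0.71 to 0.0096 for DUSP4, -0.39 to 0.040 for DUSP10 and -0.093 to 0.13 for SPRY2. The depth of DUSP4, EMP1, IGF1 and IL11 limits what can be read from them.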

Other observations

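The atypical dual-specificity phosphatases, smaller enzymes that mostly lack the MAP kinase docking domain, were looked at after the results above were known, as all other numbered DUSP symbols in the files. Of 14 listed, 13 were tested. In DMEM plus fatty acids 7 were higher and 6 were lower, with a median log2 fold change of 0.07. By edgeR 0 passed, and 1 had an unadjusted p under 0.05, against 17.7% of all genes. That was DUSP26, a phosphatase of muscle and brain, with 49.9, 43.4 and 35.6 CPM in RPMI plus B27 and 31.9, 31.1 and 28.3 CPM in DMEM plus fatty acids (-0.50 ± 0.15, SE, edgeR adjusted p 0.166). DUSP3 had 310.7 to 354.8 CPM and 197.9 to 356.3 CPM, and DUSP27, a muscle protein, had 117.9 to 156.0 CPM and 120.4 to 144.2 CPM.

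Tested genes with a CRE in the 250 bases before a RefSeq start were set beside those without one, as a description added after the DUSP8 window had been seen. Of 383 such genes 55.6% were lower in DMEM plus fatty acids and 1.04% were called, with a median log2 fold change of -0.04. Of 11624 genes without one 48.7% were lower and 1.26% were called, with a median of 0.01. Among the 12 tested genes with 2 or more CREs, 10 were below 0, DUSP8 (-2.02) included, and the next lowest were NSMF (-0.67) and CHPF (-0.62). DUSP8 was chosen on this contrast, so its part in these counts was fixed beforehand. DUSP1, whose window was chosen by its value, is also among the 383. A link between CREs and the medium was not tested.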
